A study of Bos taurus with 8 samples.

Results

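The NDUF genes encode subunits and assembly factors of respiratory complex I. They were taken here as every array probe whose gene symbol begins with NDUF. The rule found 62 of the 43794 probes of the array, carrying 41 of its 15227 gene symbols. The brightest probe of each gene, by mean signal over the 8 arrays, stands for the gene, and 21 further probes of 16 genes are given beside it. All 41 symbols are current in RefSeq (assembly ARS-UCD2.0). The assembly factors NDUFAF2, NDUFAF5, NDUFAF6, NDUFAF7 and NDUFAF8 were not analysed here.

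The samples were blastocysts of dairy cattle, the embryo stage with a fluid-filled cavity, made in vitro from ovaries collected at slaughter. The treated embryos spent days 0 to 3, the cleavage stage, in 5 mM glucose, and the control embryos spent the same days in 0.2 mM glucose. Both groups were then moved to the usual embryo culture medium, with bovine serum albumin from one supplier, and were collected as blastocysts 180 h after fertilization, so no embryo was in raised glucose when it was sampled. Each group had 4 pools of 10 whole embryos, and each of 8 two-channel arrays compared a glucose pool with a control pool, with the dyes exchanged between 2 array sets. The question addressed here is whether transcripts of complex I differed in blastocysts that had met high glucose in their first divisions. Arrays with the same number were taken as 1 replicate with its dyes exchanged. This pairing is inferred from the array titles, so replicate 1 to 4 below means 1 glucose pool against 1 control pool.

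Complex I oxidises NADH from the mitochondrial matrix, passes the electrons along a chain of iron-sulfur clusters to ubiquinone, and uses the energy to pump protons across the inner membrane. Its peripheral arm holds the NADH-oxidising part and the ubiquinone-binding part, and its membrane arm holds the pumps, whose central subunits are encoded by mitochondrial DNA. The NDUF genes are nuclear: a few encode the catalytic core of the peripheral arm, most encode accessory subunits that surround the core, and others encode factors that put the complex together. Mammalian embryos take most of their ATP from oxidative phosphorylation during cleavage and draw more on glucose as they form a blastocyst.

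Signal above the negative controls was seen in either channel for 66.2% to 82.2% of an array's probes. The test covered 32935 probes, with all 62 NDUF probes among them. Of the 41 NDUF genes, 31 exceeded the negative controls in all 16 channels. Without the brightest negative control spot of each array, which on 1 array set the limit, 38 did, and the brightest probes of NDUFA4L2, NDUFV1 and NDUFA10 missed at least 1 channel. Of 12 blastocyst markers, such as POU5F1 and GATA3, all were tested. By the same rule without the brightest control spot, 10 exceeded the negative controls in all 16 channels. Their summed linear signal was 85185 to 118044 in glucose pools and 99603 to 114456 in control pools. The 7 mesenchymal markers, among them VIM and LUM, had median log2 ratios of 1.25, -0.10, 1.43 and -0.11 in replicates 1 to 4, and 9 tested cumulus and granulosa markers had 0.05, -0.03, 0.21 and -0.08. The summed signal of the mesenchymal markers was 2812 to 27441 in glucose pools and 2819 to 5553 in control pools. That of the cumulus and granulosa markers was 2247 to 3545 and 2483 to 3403, with AMH above the negative controls in 0 of 16 channels. The part of these cells in the NDUF values was not tested. Replicate 4 stood apart: the SD of its ratios over 12587 named genes was 0.49, against 0.22 to 0.29 in replicates 1 to 3, and the main results are therefore also given without it.

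Complex I transcripts lay on both sides of equality between treatments. The mean log2(glucose/control) was above 0 for 23 of 41 NDUF genes (56.1%) and below 0 for 18, and it was above 0 for 52.2% of all named genes. The median over NDUF genes was 0.0049, against 0.0057 over all named genes. It was 0.02, 0.03, -0.03 and -0.03 in replicates 1 to 4. In pools of whole embryos, fewer cells of a type and less RNA per cell cannot be told apart.

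No NDUF gene passed the test. By limma with Benjamini-Hochberg adjustment over all 32935 probes, 0 probes of the array (0%) had an adjusted p under 0.05, and the lowest adjusted p was 0.977. Before adjustment, 1 of the 62 NDUF probes, that of NDUFB8, had a p under 0.05, against 2.37% of all probes (1.73% brighter and 0.638% dimmer in glucose). Per gene this was 1 of 41 (2.44%), beside 2.71% of all named genes in either direction and 2.09% brighter in glucose. The share of NDUF genes with a low p is near that of the array. NDUFB8 alone was above 0 in all 4 replicates (2.44%, against 5.19% of named genes), and 2 genes, NDUFA10 and NDUFB10, were below 0 in all 4 (4.88%, against 4.43%). No NDUF gene had glucose pools all above or all below the control pools, an arrangement that 0.389% and 0.294% of named genes had.

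The intervals bound the size of a difference gene by gene. The 95% interval of the mean ratio lay within -1 and 1 on the log2 scale for 38 of 41 genes and within 1.5-fold either way for 29 of 41. These counts use the brightest probe of each gene. No share over all named genes is given for them, so they cannot be read as particular to the family. Only 4 pairs of pools limit this precision. The labels do not say whether pools came from separate ovary collections, so the p-values and intervals measure only the spread between these pools. The SD between replicates was 0.07 for NDUFA4L2, the lowest, and 0.83 for NDUFS8, the highest, with a median of 0.30.

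**Figure D1:**
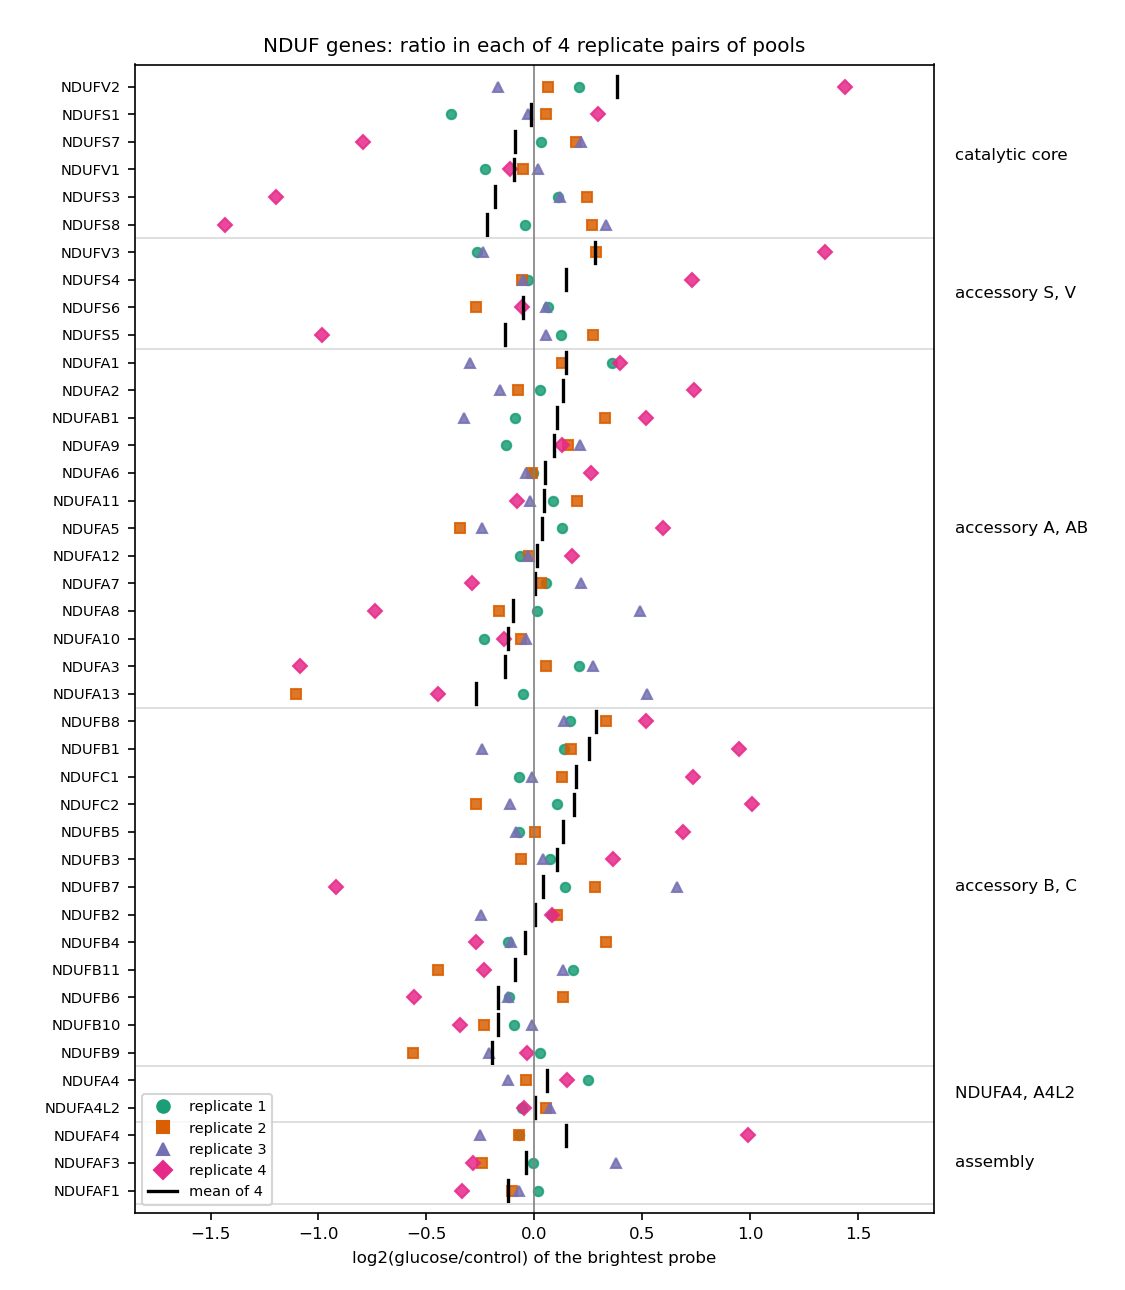
Log2(glucose/control) of the brightest probe of each of the 41 NDUF genes in replicates 1 to 4, with the mean of 4 as a vertical bar, grouped by role and ordered by mean. Replicates 1 to 3 lie within 0.5 of 0 for 38 of 41 genes, while replicate 4 lies beyond 0.5 for 20 genes, 12 to the right and 8 to the left.

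NDUFB8 encodes an accessory subunit of the membrane arm whose protein is often blotted as a marker of an assembled complex I. Its probe exceeded the negative controls in all 16 channels. Its log2 signal in glucose pools 1 to 4 was 13.67, 13.79, 13.85 and 13.78 (13.77 ± 0.08, SD, n = 4), and in control pools 1 to 4 it was 13.51, 13.46, 13.71 and 13.27 (13.49 ± 0.18, SD, n = 4). The glucose pool was the brighter one of every pair, but the groups overlapped, since glucose pool 1 was dimmer than control pool 3. The ratios were 0.16, 0.33, 0.14 and 0.52, with a mean of 0.29 ± 0.18 (SD, n = 4), which is 1.22-fold. The 95% interval ran from 0.07 to 0.50, limma's unadjusted p was 0.0178, and the adjusted p over all probes was 0.977.

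Single arrays of NDUFB8 also carried a dye effect. Arrays 1 to 4 of set 047 gave -0.11, 0.04, 0.32 and 0.65, and those of set 056 gave 0.44, 0.62, -0.05 and 0.39. The mean ratio with glucose in Cy5 minus that with glucose in Cy3 was -0.44, a difference that averaging the 2 arrays of a number removes. Without replicate 4 the mean ratio of NDUFB8 was 0.21, with an unadjusted limma p of 0.0269 and an adjusted p of 0.958. Without replicate 2 the mean was 0.27 and the unadjusted limma p 0.0668, and with median centring of arrays in place of loess that p was 0.247. Over all alternatives run, the lowest adjusted limma p of NDUFB8 was 0.0919.

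The catalytic core was represented by 6 genes. Their mean ratio was above 0 for 1 gene and below for 5, with a median of -0.09, and none passed the test. Replicates 1 to 3 gave SDs across these 6 genes of 0.13 to 0.22, and replicate 4 gave 1.07. NDUFV1 binds the flavin that accepts electrons from NADH. Its log2 signal was 8.67, 8.80, 7.53 and 7.09 in glucose pools 1 to 4 and 8.90, 8.86, 7.52 and 7.21 in control pools 1 to 4, so both pools of a pair moved together. Its ratio was -0.10 ± 0.10 (SD, n = 4), with an interval of -0.25 to 0.06.

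NDUFV2, the partner of NDUFV1 with an iron-sulfur cluster of its own, had the highest mean ratio of the family. Its log2 signal was 13.37, 13.46, 12.73 and 13.09 in glucose pools and 13.16, 13.40, 12.90 and 11.65 in control pools 1 to 4. Control pool 4 was the dimmest of all 8 and the other 7 pools overlapped. The ratios were 0.20, 0.06, -0.17 and 1.44, with a mean of 0.38 ± 0.72 (SD, n = 4), an interval of -0.35 to 1.12 and a limma adjusted p of 0.977. Without replicate 4 the mean was 0.03. The highest mean ratios after it, those of NDUFB8 (0.29), NDUFV3 (0.28) and NDUFB1 (0.25), differ from it by less than the spread between replicates.

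NDUFS1 is the large subunit that carries several iron-sulfur clusters. Its brightest probe gave -0.39, 0.06, -0.03 and 0.29 in replicates 1 to 4, and the mean was -0.02 ± 0.28 (SD, n = 4). A dimmer probe gave -0.44, 0.08, -0.09 and 1.45, so its mean was 0.25 ± 0.83 (SD, n = 4), and the other dimmer probe had a mean of -0.05 ± 0.12 (SD, n = 4). The 3 probes had the same sign in replicates 1, 3 and 4 and differed in the size of replicate 4.

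NDUFS8 carries a pair of iron-sulfur clusters near the ubiquinone site. In glucose pools 1 to 4 its log2 signal was 11.90, 12.26, 12.24 and 11.69, and in control pools it was 11.94, 11.99, 11.91 and 13.12. Control pool 4 alone stood above the rest. The ratios were -0.04, 0.27, 0.33 and -1.43, and the mean of -0.22 ± 0.83 (SD, n = 4) had an interval of -1.06 to 0.62. Without replicate 4 the mean was 0.18. NDUFS7, which carries the last cluster before ubiquinone, had a ratio of -0.80 in replicate 4 and 0.03 to 0.21 in the others.

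NDUFS3, a core subunit of the ubiquinone-binding part, was the clearest case of probes that disagreed. Its brightest probe read 12.58, 12.70, 13.11 and 12.63 in glucose pools and 12.47, 12.45, 12.99 and 13.83 in control pools 1 to 4, so control pool 4 was the brightest of all. Its dimmer probe read 9.79, 9.89, 8.996 and 9.26 in glucose pools and 9.90, 9.90, 9.45 and 8.34 in control pools, so control pool 4 was the dimmest of all. The ratios of the brightest probe were 0.11, 0.25, 0.12 and -1.20 and those of the dimmer probe -0.11, -0.01, -0.46 and 0.91. The 2 probes had opposite signs in all 4 replicates, with means of -0.18 ± 0.68 and 0.09 ± 0.58 (SD, n = 4 each), and no direction can be given for the gene.

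**Figure D2:**
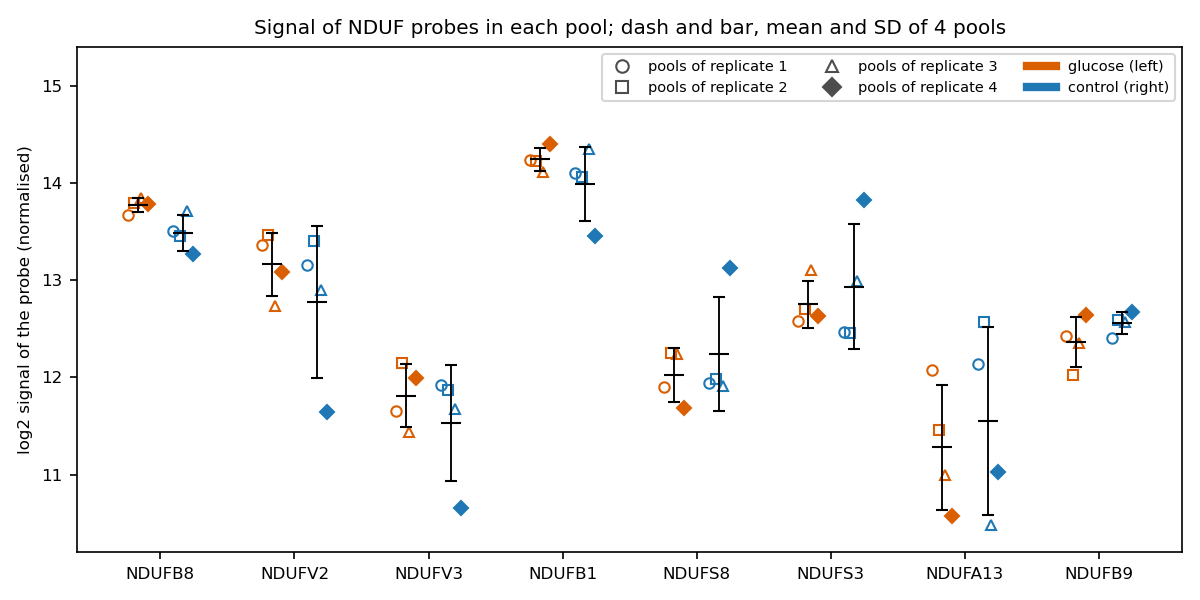
Normalised log2 signal of 8 NDUF genes in each pool, glucose to the left and control to the right of each gene, with mean and SD of 4 pools. The filled diamonds are the pools of replicate 4: control pool 4 lies lowest for NDUFV2 (11.65), NDUFV3 (10.65) and NDUFB1 (13.45) and highest for NDUFS8 (13.12) and NDUFS3 (13.83).

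Among the 4 accessory subunits named NDUFS or NDUFV, the mean ratio was positive in 2 and negative in 2, and its median was 0.05. NDUFV3, a small subunit beside the NADH-binding core, had log2 signals of 11.66, 12.15, 11.43 and 11.997 in glucose pools and 11.93, 11.87, 11.67 and 10.65 in control pools. Control pool 4 was again the dimmest. Its ratios were -0.27, 0.28, -0.24 and 1.34 and its mean 0.28 ± 0.75 (SD, n = 4), with an interval of -0.48 to 1.05, and without replicate 4 the mean was -0.07. NDUFS4, needed for a stable NADH-oxidising part, had -0.03, -0.06, -0.05 and 0.73, with a mean of 0.15 ± 0.39 (SD, n = 4). Its dimmer probe gave 0.17, 0.07, -0.11 and 1.02, so both probes placed replicate 4 highest. NDUFS5, a subunit on the intermembrane-space face, went the other way in replicate 4, with 0.12, 0.27, 0.05 and -0.99 and a mean of -0.13 ± 0.57 (SD, n = 4). NDUFS6, a zinc-binding subunit, had a ratio of -0.05 ± 0.16 (SD, n = 4), with -0.06 in replicate 4.

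The 13 accessory subunits named NDUFA or NDUFAB had a median ratio of 0.03, with 9 means above 0 and 4 below, from -0.27 to 0.15. NDUFA13, also known as GRIM-19 for a role in cell death in human cells, had the lowest mean of all NDUF genes. Its log2 signal was 12.08, 11.46, 11.001 and 10.58 in glucose pools and 12.13, 12.57, 10.48 and 11.02 in control pools 1 to 4, which overlap over nearly their whole range. Its ratios were -0.05, -1.11, 0.52 and -0.44, the mean was -0.27 ± 0.68 (SD, n = 4) and the interval ran from -0.97 to 0.43. NDUFA13 was the only NDUF gene past 0.5 in both replicate 2 and replicate 3, with opposite signs.

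NDUFA10, which belongs to the nucleoside kinase family by its fold, was dimmer in glucose in all 4 pairs. Its brightest probe exceeded the negative controls in 7 of 8 glucose and 7 of 8 control channels. Its log2 signal was 7.85, 7.995, 7.18 and 7.06 in glucose pools 1 to 4. In control pools 1 to 4 it was 8.09, 8.06, 7.21 and 7.20. Its ratios were -0.24, -0.06, -0.04 and -0.14, with a mean of -0.12 ± 0.09 (SD, n = 4). The interval was -0.27 to 0.03, limma's unadjusted p was 0.0914 and its adjusted p 0.977. Its 2 dimmer probes averaged -0.11 and -0.03 and were each above 0 in at least 1 replicate. NDUFA1, a small membrane-anchored subunit, averaged 0.15 ± 0.32 (SD, n = 4) on its brightest probe and 0.16 ± 0.305 (SD, n = 4) on its dimmer one, with replicate 3 at -0.30 and -0.28 and replicate 4 at 0.40 and 0.41.

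NDUFA2, which has a thioredoxin-like fold, gave 0.02, -0.07, -0.16 and 0.74, and its dimmer probe gave 0.75 in replicate 4. NDUFA3 gave 0.21, 0.05, 0.27 and -1.08, and its dimmer probe -0.89 in replicate 4. In both genes, then, the probes put replicate 4 on the same side at a similar distance. NDUFA6, a protein of the LYR family that holds the acyl carrier protein NDUFAB1 on the complex, gave -0.0049, -0.01, -0.04 and 0.26. NDUFA11, a membrane-arm subunit, averaged 0.05 ± 0.12 (SD, n = 4) on its brightest probe, 0.05 on one dimmer probe and -0.05 ± 0.03 (SD, n = 4) on the other, whose 4 replicates were all below 0. NDUFA7 averaged 0.0030 ± 0.21 on its brightest probe and -0.02 ± 0.25 on its dimmer one (SD, n = 4 each), with replicate 4 at -0.29 and -0.34.

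The 13 accessory subunits of the membrane arm named NDUFB or NDUFC had 8 means above 0 and 5 below. Their median was 0.04, and they ran from -0.20 for NDUFB9 to 0.29 for NDUFB8. NDUFB1 read 14.24, 14.23, 14.11 and 14.40 in glucose pools and 14.10, 14.06, 14.36 and 13.45 in control pools 1 to 4. Control pool 4 was the dimmest pool, and control pool 3 lay within the range of the glucose pools. Its ratios were 0.14, 0.17, -0.24 and 0.95, with a mean of 0.25 ± 0.50 (SD, n = 4) and an interval of -0.26 to 0.77. Without replicate 4 the mean was 0.02.

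NDUFB10, a membrane-arm subunit on the intermembrane-space face, was dimmer in glucose in every pair. It read 12.57, 12.51, 12.16 and 12.13 in glucose pools and 12.66, 12.75, 12.17 and 12.47 in control pools 1 to 4, and these ranges overlap. Its ratios were -0.09, -0.24, -0.01 and -0.34, and the mean was -0.17 ± 0.15 (SD, n = 4), with an interval of -0.36 to 0.02, an unadjusted limma p of 0.0699 and an adjusted p of 0.977. Without replicate 4 the mean was -0.11.

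NDUFB9, another LYR protein of the complex, read 12.43, 12.03, 12.36 and 12.64 in glucose pools and 12.40, 12.59, 12.57 and 12.68 in control pools. Its ratios of 0.02, -0.56, -0.21 and -0.03 gave a mean of -0.20 ± 0.26 (SD, n = 4), while its dimmer probe gave -0.03, -0.32, 0.03 and 0.36 and a mean of 0.01 ± 0.28 (SD, n = 4). Only replicate 2 had the same sign on both probes. NDUFB6 had the same sign on both probes in all 4 replicates, yet its mean was -0.17 ± 0.29 on the brightest probe and 0.01 ± 0.20 on the dimmer one (SD, n = 4 each), with replicate 4 at -0.56 and -0.05. NDUFB2 was lowest in replicate 3, at -0.25, with 0.08 to 0.10 in the others. NDUFB5 was highest in replicate 4, at 0.69, with -0.08 to 0.0026 in the others.

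NDUFA4 was long counted with complex I and is now placed in cytochrome c oxidase, complex IV. Its log2 signal was 12.75, 12.68, 12.35 and 12.03 in glucose pools and 12.50, 12.72, 12.47 and 11.88 in control pools, with ratios of 0.25, -0.04, -0.12 and 0.15 and a mean of 0.06 ± 0.17 (SD, n = 4). Its paralog NDUFA4L2, which low oxygen induces through HIF-1 in human and mouse cells, was seldom detected. It exceeded the negative controls in 1 of 8 glucose channels and 3 of 8 control channels. Its log2 signal stayed between 6.85 and 6.98 in glucose pools and between 6.83 and 6.95 in control pools, near the floor, so its ratio of 0.0049 ± 0.07 (SD, n = 4) says little about the transcript.

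Of the NDUFAF assembly factors 3 were on the array, with 1 mean above 0, 2 below and a median of -0.04. NDUFAF1, which acts on intermediates of the membrane arm, averaged -0.12 ± 0.15 (SD, n = 4) and had -0.34 in replicate 4, with an unadjusted limma p of 0.161 and an adjusted p of 0.977. NDUFAF3 and NDUFAF4 work together on the ubiquinone-binding part. NDUFAF3 averaged -0.04 ± 0.30 (SD, n = 4), with -0.28 in replicate 4, and NDUFAF4 gave -0.07, -0.07, -0.25 and 0.99, with a mean of 0.15 ± 0.57 (SD, n = 4). A further 6 assembly factors not named NDUF had 4 means above 0 and 2 below, a median of 0.05 and no p under 0.05 before adjustment.

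The largest values of the family were those of replicate 4. A threshold of 0.5 on the log2 scale, 1.41-fold, was passed by 0, 2, 2 and 20 of the 41 genes in replicates 1 to 4. The 20 genes in replicate 4 are 48.8% of the family, against 24.6% of all named genes. The share was 33.7% of the 8785 named genes that exceeded the negative controls in all 16 channels. Those 8785 were counted without the brightest negative control spot of each array. Above 0.5 lay 12 genes (29.3%, against 15.2% of named genes): NDUFA2, NDUFA5, NDUFAB1, NDUFAF4, NDUFB1, NDUFB5, NDUFB8, NDUFC1, NDUFC2, NDUFS4, NDUFV2 and NDUFV3. Below -0.5 lay 8 genes (19.5%, against 9.37% of named genes): NDUFA3, NDUFA8, NDUFB6, NDUFB7, NDUFS3, NDUFS5, NDUFS7 and NDUFS8. These shares are descriptions of 1 pair of pools and were not tested. Core genes were 1 of the 12 and 3 of the 8, and both lists hold accessory subunits of the membrane arm.

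By the inferred pairing, the 2 arrays of replicate 4 carried the same pools in exchanged dyes. NDUFV2 had 1.45 on the array of set 047 and 1.43 on that of set 056, NDUFS8 had -1.35 and -1.51, and NDUFS7 had -0.17 and -1.43. Across the 41 genes the 2 arrays of replicate 4 correlated at a Pearson r of 0.87 as measured and 0.97 with the dye effect removed. The genes of a replicate share pools, amplified RNA and arrays, so they are not independent points.

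**Figure D3:**
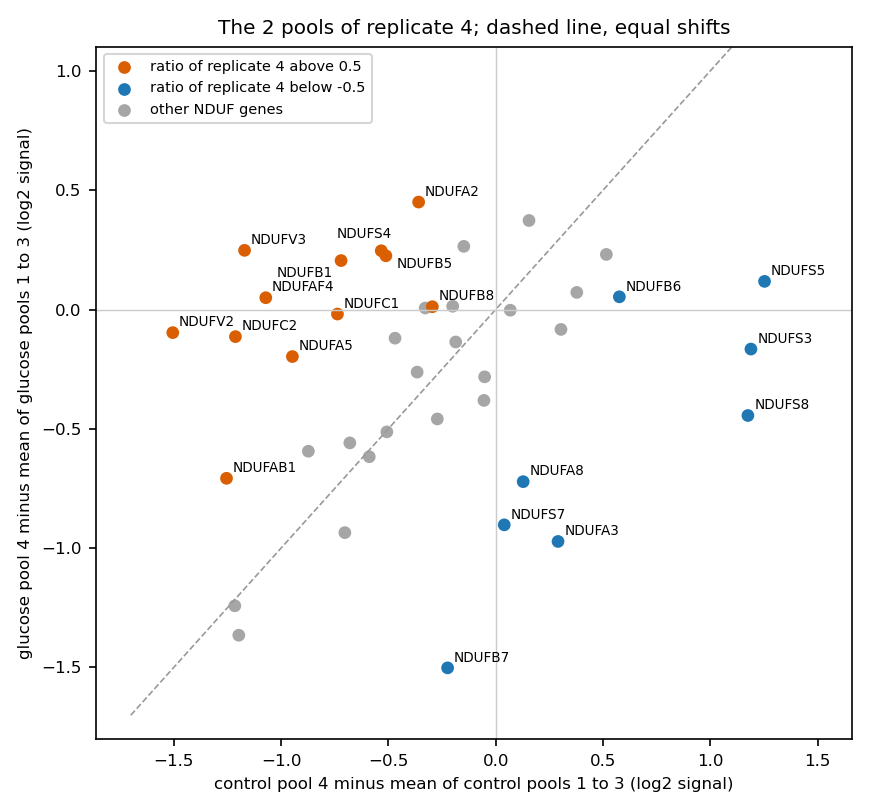
Shift of the pools of replicate 4 from the mean of pools 1 to 3 of their own group, control on the x axis and glucose on the y axis, in log2 signal, for 41 NDUF genes. All 12 genes with a ratio above 0.5 lie left of 0, with a median control shift of -0.84, and 7 of the 8 genes with a ratio below -0.5 lie right of 0, positions that the choice by ratio partly fixes. The median control shift of all 41 genes was -0.33.

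The signals of the 2 pools of replicate 4 describe this split further. These genes were chosen by the ratio of the same pools, so a shift of control pool 4 against the ratio, or of glucose pool 4 with it, is partly fixed by the choice. Over all 41 NDUF genes, pool 4 differed from the mean of pools 1 to 3 by a median of -0.33 in control and -0.12 in glucose, and the control shift was the larger in 26 of 41. These shifts are given for NDUF genes only, without values over all named genes, so they cannot be read as particular to the family. For the 12 genes above 0.5, control pool 4 was dimmer than the mean of control pools 1 to 3 in 12 of 12, by a median of -0.84, while glucose pool 4 differed from its own group by a median of 0.03. The control shift was the larger one in 11 of the 12. For the 8 genes below -0.5 the pools were more even, with a median of 0.43 in control pool 4 and -0.58 in glucose pool 4. NDUFS3, NDUFS5 and NDUFS8 had control pool 4 higher by 1.19, 1.25 and 1.18. NDUFA3, NDUFA8, NDUFB7 and NDUFS7, the last 3 picked out here after their values were seen, had glucose pool 4 lower, with shifts of -0.97, -0.72, -1.502 and -0.90. These signals rest on normalisation between arrays, and the pools of replicate 4 were measured on 2 arrays that no other pool shares.

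Replicate 3 leaned the other way. The sign of replicate 3 was opposite to that of replicate 4 in 31 of 41 NDUF genes (75.6%). This compares with 60.0% of named genes and 65.3% of the same 8785 detected in all 16 channels. Of the 20 genes past 0.5 in replicate 4, 18 had the opposite sign in replicate 3, 11 of the 12 above and 7 of the 8 below. No share over all named genes past 0.5 in replicate 4 is given for this count, so it cannot be read as particular to the family. Pearson's r between replicates 3 and 4 over 41 genes was -0.66 and Spearman's rho -0.68. Over all named genes r was -0.28, and over the 8785 detected in all 16 channels it was -0.33. Over the 8, 9 and 15 genes of respiratory complexes III, IV and V, r was -0.78, -0.32 and -0.62, so the negative value was not particular to complex I. The other 5 pairs of replicates had r between -0.17 and 0.04 over NDUF genes. The value was smaller with 1 array set, at -0.53 for set 047 and -0.22 for set 056, where the dye effect does not cancel, and it was -0.44 with median spot intensities.

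The ratios of replicate 3 were small beside those of replicate 4. Their SD across NDUF genes was 0.23, against 0.69 in replicate 4, and 0.15 and 0.28 in replicates 1 and 2. NDUFB7 had the highest ratio of replicate 3, at 0.66, and NDUFAB1 the lowest, at -0.32. The cause of the opposite signs was not tested.

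**Figure D4:**
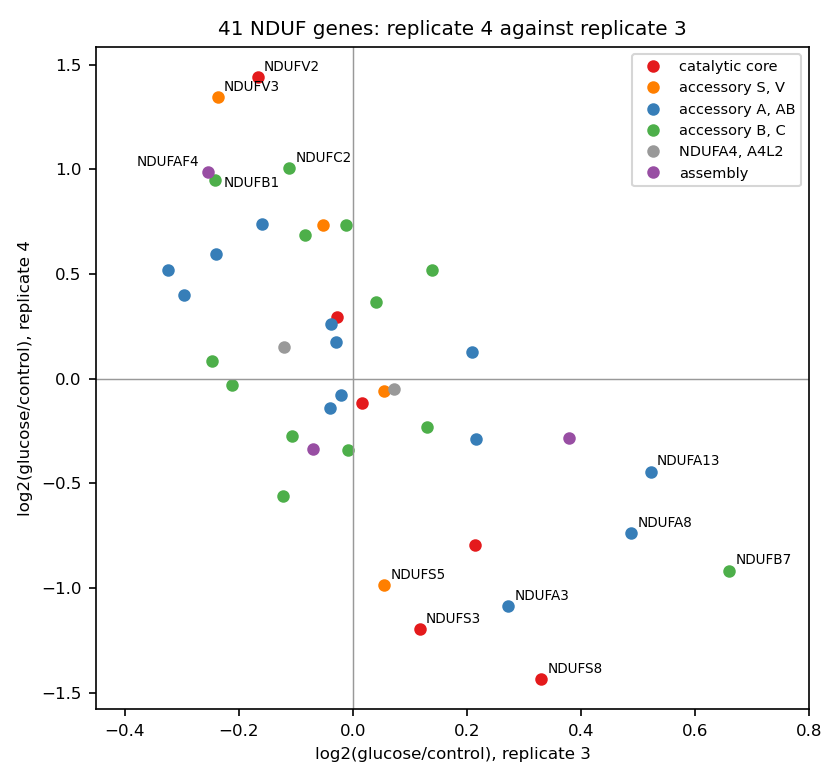
Log2(glucose/control) of 41 NDUF genes in replicate 3 (x axis) and replicate 4 (y axis), coloured by role. The axes differ in scale: replicate 3 spans -0.32 to 0.66 and replicate 4 spans -1.43 to 1.44, and 31 genes lie in the quadrants of opposite sign.

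Without replicate 4 the family was closer together. The median ratio was then -0.02. In all 3 remaining replicates 7 genes were above 0 (17.1%) and 6 below (14.6%), against 12.8% of named genes in each direction. An unadjusted p under 0.05 was found for 2 of the 62 probes (3.23%), against 5.10% of all probes. By limma 0 probes passed the adjusted threshold. Among the 4 highest means, NDUFV2 moved from 0.38 to 0.03, NDUFB1 from 0.25 to 0.02, NDUFV3 from 0.28 to -0.07 and NDUFB8 from 0.29 to 0.21. Of other genes, NDUFS3 moved from -0.18 to 0.16, NDUFS8 from -0.22 to 0.18, NDUFS5 from -0.13 to 0.15, NDUFA3 from -0.14 to 0.18 and NDUFAF4 from 0.15 to -0.13. NDUFB9 (-0.25), NDUFB10 (-0.11) and NDUFA13 (-0.21) kept their sign.

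Second probes gave a check within a gene. Of 21 further probes of 16 genes, 15 had a mean ratio of the same sign as the brightest probe and 17 had the same sign in replicate 4. In replicate 4, 11 were closer to 0 than the brightest probe and 10 farther from it. NDUFS8 had -0.29 against -1.43 on its brightest probe, NDUFV3 0.49 against 1.34, and NDUFA8 -0.08 against -0.74. NDUFS1 had 1.45 against 0.29, NDUFS4 1.02 against 0.73, and NDUFA5 0.87 against 0.60. NDUFS7 has 4 probes, and in replicate 4 they read -0.80, -0.88, -0.71 and -0.09. The cause of these differences was not tested.

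**Figure D5:**
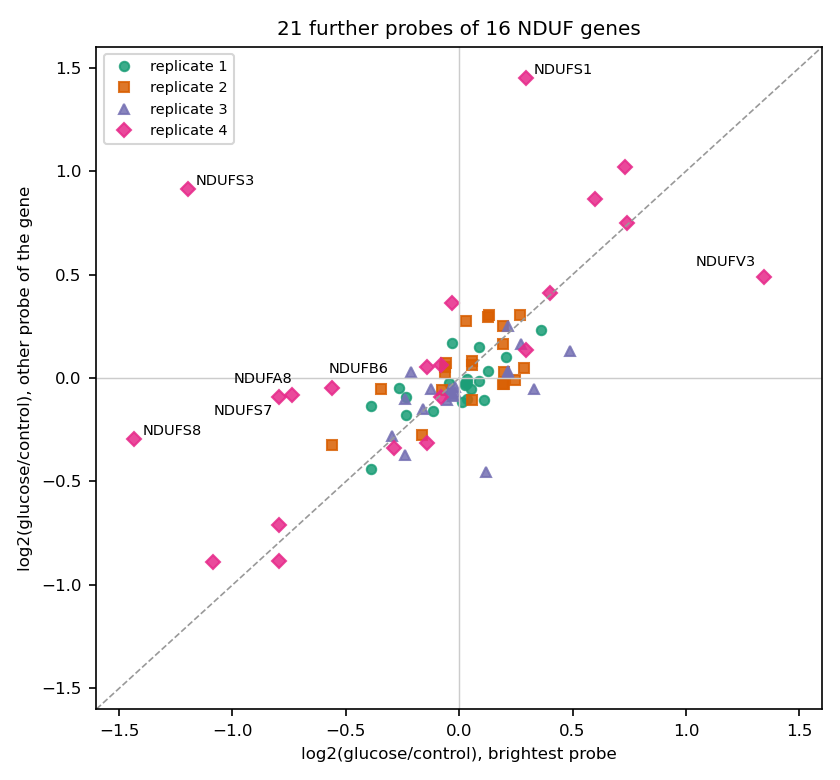
Log2(glucose/control) of 21 further probes (y axis) against the brightest probe of the same gene (x axis) in replicates 1 to 4, with the line of equality dashed. Labels mark genes whose probes differ by over 0.5 in replicate 4, among them NDUFS3 (-1.20 against 0.91), NDUFS8 (-1.43 against -0.29) and NDUFS1 (0.29 against 1.45).

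The replicates differed more than the 2 arrays of a replicate did. The median SD of a gene's ratio was 0.30 between replicates and 0.10 between the 2 arrays of a replicate after removal of the dye effect, and it was larger between replicates in 40 of 41 genes. The 2 arrays of replicates 1 to 4 correlated at r = 0.88, 0.86, 0.91 and 0.97 over NDUF genes with the dye effect removed. As measured, the same correlations were -0.16, 0.11, 0.32 and 0.87. For these correlations the dye effect was removed by subtracting each gene's mean over the 4 arrays of a dye orientation. That mean also holds the gene's mean ratio over replicates, so its removal lowers correlations between arrays of different replicates. The gap between arrays of the same and of different replicates is therefore partly built in. Arrays of different replicates in exchanged dyes then correlated at up to 0.63. The dye effect itself was common: the dye term passed an adjusted p of 0.05 in 35 of 62 NDUF probes, against 42.9% of all probes, in limma's model of 8 arrays with the replicate block. The difference between the 2 dye orientations had a median absolute size of 0.33 over NDUF genes, and the largest, in NDUFS7, was 1.22.

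Some members differed more between pairs of pools than between treatments. The mean log2 signal of the 2 pools of a pair ranged over more than 1 unit across the 4 pairs in 6 of 41 NDUF genes (14.6%), against 6.63% of named genes. The range was 1.88 for NDUFA11, 1.68 for NDUFV1, 1.37 for NDUFA13, 1.36 for NDUFAB1, 1.24 for NDUFB7 and 1.06 for NDUFV2, and all 6 were highest in pair 1 or 2 and lowest in pair 3 or 4. NDUFA11 read 10.46, 10.31, 8.82 and 8.50 in glucose pools and 10.37, 10.11, 8.84 and 8.58 in control pools 1 to 4, so its pairs stood far apart while the pools within a pair differed by at most 0.20. In 10 of 41 genes the pair means had a wider range than the ratios, and in the other genes the ratios had the wider range. No share over all named genes is given for this count. Pools of a pair were measured on the same arrays, so differences between embryo batches and between arrays cannot be told apart here.

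In the rest of the respiratory chain, means were also small and replicate 4 wide. The median ratio was 0.08 over 4 genes of complex II (succinate dehydrogenase), -0.04 over 8 of complex III, 0.0004 over 9 of complex IV and 0.04 over 15 of complex V (ATP synthase). Means above 0 were 3 of 4, 3 of 8, 5 of 9 and 11 of 15, and 1 gene, in complex V, had an unadjusted p under 0.05. The SD across genes in replicate 4 was 0.61, 0.72, 0.55 and 0.68 in complexes II to V, beside 0.69 for the NDUF genes. Past 0.5 either way in replicate 4 lay 3 of 4, 4 of 8, 2 of 9 and 9 of 15 genes of complexes II to V, beside 20 of 41 NDUF genes. The 6 regulators of mitochondrial biogenesis had a median of -0.01, with 2 means above 0, and 6 other enzymes that feed electrons to ubiquinone had a median of 0.08, with 4 above 0. No probe carried the symbols searched for the mitochondrially encoded subunits of complex I, which were not analysed here.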

How the data were processed

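Total RNA of pooled bovine blastocysts was amplified by T7 RNA polymerase, tagged with either dye and put on Agilent arrays, per the labels' protocols. The deposited scanner tables hold spot intensity (mean and median) and local background of both channels, not normalized, per the file headers. The submitters' processing notes name limma. The authors' deposited series table gives a score for each probe on each array, of unstated unit. Set against the scanner values (r between 0.966 and 0.998), it was read as log2 glucose signal over log2 control signal. Column medians were 0.9985, 0.9992, 0.9996, 0.9999, 0.9993, 0.9981, 0.9990 and 1.0000, and how the scores were scaled and centred is unknown. They served only as an alternative.

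In R 4.3.3 with limma 3.58.1, mean intensities were corrected by normexp (offset 50) and normalized by loess within arrays, with control spots at weight 0. Log2(glucose/control) was averaged over the 2 arrays of a number, which cancels the dye effect, and 4 replicates were tested against 0 (lmFit, eBayes, two-sided, Benjamini-Hochberg over 32935 probes). Probes entered the test if either channel passed the mean plus 2 SD of the 153 negative controls on 4 or more of the 8 arrays. Signals per pool come from Aquantile normalization after loess, averaged over 2 arrays. The offset shrinks ratios of faint probes.

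Arrays were paired by the number in their titles, since arrays of a number resembled each other. With the dye effect removed, arrays of a number correlated at 0.690, 0.736, 0.853 and 0.872 over tested probes. The highest value with an array of any other number in exchanged dyes was 0.213. Removal of the dye effect lowers correlations between arrays of different numbers, so this gap is partly built in. As measured, arrays of a number correlated at -0.05, -0.17, 0.15 and 0.56 over tested probes. Over NDUF genes the highest correlation with an array of another number was 0.63 with the dye effect removed. The fit was checked on simulated data. The members, lists and tests were chosen with earlier results of these data known. Genes given in full are NDUFB8, the 8 of lowest p, the 4 highest and 4 lowest means, those with a replicate that stood apart by Dixon's criterion, those with probes of opposite sign, NDUFA4, NDUFA4L2, and group extremes. Alternatives covered replicates left out, background, offset, spot summary, normalization, filter, array weights, array sets, the replicate block, separate channels, the authors' scores and probe choice. No sequence is printed, as the files used here hold none.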

Additional observations from a re-analysis of the deposited data

Results flagged for a closer look

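In 92 groups of 4 values from the NDUF genes, 14 held a value that stood apart from the other 3 by Dixon's criterion, 12 of them in replicate 4. Chance gives about 1 in 20, and the groups share pools, so they are not independent. In log2(glucose/control), replicate 4 stood above the others for NDUFAF4 (0.99, others -0.25 to -0.07), NDUFS4 (0.73, others -0.06 to -0.03), NDUFB5 (0.69, others -0.08 to 0.0026), NDUFA6 (0.26, others -0.04 to -0.0049) and the dimmer NDUFA2 probe (0.75, others -0.15 to -0.03). It stood below them for NDUFS3 (-1.20, others 0.11 to 0.25), NDUFA3 (-1.08, others 0.05 to 0.27), the dimmer NDUFA3 probe (-0.89, others 0.06 to 0.16) and NDUFS5 (-0.99, others 0.05 to 0.27). In signal, control pool 4 stood apart for NDUFS8 at 13.12, with the other control pools at 11.91 to 11.99. The SD across genes stood apart in replicate 4 for the catalytic core (1.07, others 0.13 to 0.22) and for the accessory S and V subunits (1.01, others 0.14 to 0.27). Replicate 3 stood apart for NDUFB2 (-0.25, others 0.08 to 0.10) and for the median of the accessory B and C subunits (-0.083, others 0.07 to 0.10).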

How the results depend on the processing

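The number of NDUF probes past an adjusted p of 0.05 was 0 under every alternative run, while separate channels, which take the 8 arrays as independent, called 32 of all probes. The number at an unadjusted p under 0.05 was 1 in the main analysis. It was 0 with median centring in place of loess and with array set 047 alone (1.25% of all probes in each), 2 (3.23%, all probes 6.24%) with array weights, 3 (4.84%, all probes 8.23%) with 8 arrays and no replicate block, and 5 (8.06%, all probes 10.4%) with separate channels. With 1 replicate left out it was 0 to 4: 0 without replicate 2 (all probes 1.92%), 4 without replicate 3 (6.45%, all probes 4.12%) and 2 without replicate 4 (3.23%, all probes 5.10%). With 8 arrays and the replicate block it was 1 (1.61%, all probes 3.43%), against 3 without the block, and 0 probes of the array passed the adjusted threshold in either model. The median ratio of NDUF genes was -0.030 with median spot intensities and -0.019 to 0.020 with 1 replicate left out. The number of genes above 0 in all replicates was 0 with median centring and with array set 056 alone, and 2 to 7 with 1 replicate left out. The number below 0 was 1 with median spot intensities, median centring, either array set and the mean over probes, and 4 to 6 with 1 replicate left out. The 20 genes past 0.5 in replicate 4 numbered 18 to 22 under 12 alternatives. The correlation of replicates 3 and 4 was -0.44 with median spot intensities, -0.53 with set 047 and -0.22 with set 056. These last 2 results were examined after the data were seen. The causes were not tested.

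Of 29 genes described in full, 9 kept their sign everywhere: NDUFA1, NDUFAF1, NDUFB1, NDUFB10, NDUFB6, NDUFB8, NDUFB9, NDUFV1 and NDUFV2. NDUFB8 ranged from 0.21 to 0.35, with a lowest adjusted p of 0.0919 from separate channels. Signs turned with median spot intensities for NDUFA10 (0.0555), NDUFA11 (-0.030), NDUFA4 (-0.0082), NDUFA4L2 (-0.040), NDUFA7 (-0.067) and NDUFB2 (-0.092), and with median centring for NDUFA4L2 (-0.0078), NDUFB2 (-0.0080) and NDUFS1 (0.0001). They turned with array weights for NDUFA3 (0.12), NDUFA4L2 (-0.012), NDUFAF3 (0.0047), NDUFAF4 (-0.047), NDUFB5 (-0.015), NDUFS3 (0.0635), NDUFS5 (0.077), NDUFS8 (0.010) and NDUFV3 (-0.0625). Set 047 alone turned NDUFA11 (-0.094), NDUFA4L2 (-0.019) and NDUFA7 (-0.055). Offset 16 turned NDUFA7 (-0.0026), the authors' deposited values NDUFA7 (-0.029), and the mean over probes NDUFA7 (-0.010) and NDUFS1 (0.063). With 1 replicate left out, the range included both signs for NDUFA11 (-0.0045 to 0.088), NDUFA13 (-0.53 to 0.0082), NDUFA2 (-0.0695 to 0.23), NDUFA3 (-0.27 to 0.18), NDUFA4 (-0.0028 to 0.12), NDUFA4L2 (-0.018 to 0.026), NDUFA6 (-0.0185 to 0.081), NDUFA7 (-0.068 to 0.10), NDUFAF3 (-0.18 to 0.044), NDUFAF4 (-0.13 to 0.28), NDUFB2 (-0.028 to 0.089), NDUFB5 (-0.050 to 0.21), NDUFS1 (-0.12 to 0.11), NDUFS3 (-0.32 to 0.16), NDUFS4 (-0.047 to 0.22), NDUFS5 (-0.27 to 0.15), NDUFS6 (-0.092 to 0.020), NDUFS8 (-0.40 to 0.18) and NDUFV3 (-0.073 to 0.46).

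The 4 pairs of pools limit all of these values, and signal near the negative controls limits NDUFA4L2. Low signal also limits NDUFA10, NDUFV1 and NDUFS6 in pairs 3 and 4, where these genes were faintest.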
